A study of Mus musculus with 12 samples.

Results

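The repressive histone mark H3K27me3 (histone H3 trimethylated at lysine 27) was described at 3 genes of the fetal gut programme, Igf2bp1, Lin28b and Prdm1, in sorted mouse small-intestinal epithelium. Each gene is represented by 1 window of the mm9 genome. The Igf2bp1 window spans 75 kb (chr11:95805001-95880000), the Lin28b window 130 kb (chr10:45080001-45210000) and the Prdm1 window 45 kb (chr10:44145001-44190000). Of 81097 enriched regions (islands) in the 8 lists of the series, 28 overlap these windows and were taken as members. The islands come from chromatin immunoprecipitation and sequencing (ChIP-seq).

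The adult cells came from 2-month-old (P60) Lgr5EGFP-Cre-ERT males. Intestinal stem cells (ISC) were sorted for high EGFP driven by Lgr5, and adult enterocytes (AE) as EpCAM-positive epithelial cells. The embryonic cells were EpCAM-positive epithelium at E14.5 and E12.5, with no transgene or sex given for them. All animals were of a mixed C57BL/6 CD1 background, and cells positive for CD31 or CD45 were gated out. Each population gave 2 ChIP libraries, called biological duplicates in the series design, and 1 input library that enters as the control of the lists. The series set these populations side by side to follow chromatin through the specification and differentiation of adult stem cells. No marker gene was read out here, since the lists hold no expression and no gene names, so the sorted identities rest on the labels.

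Polycomb repressive complex 2 places H3K27me3, which marks genes held silent through development and often spreads as broad domains over them. Igf2bp1 encodes an oncofetal protein that binds and stabilises mRNAs. Lin28b encodes an RNA-binding protein that blocks the maturation of let-7 microRNAs and so keeps fetal and proliferative programmes on. Prdm1 encodes the zinc finger repressor Blimp1, which in the mouse gut is made by fetal and suckling epithelium and delays adult enterocyte genes. In the RefSeq table of another mouse assembly (GRCm38.p6), Igf2bp1 lies between B4galnt2 and Gip, Lin28b between Bves and Hace1, and Prdm1 between Atg5 and Prep. The RefSeq promoter table of that assembly carries Lin28b and Prdm1 on the minus strand, so that their starts face the upper end of the windows. The RefSeq Prdm1 gene is longer than the Prdm1 window, which therefore holds only part of it.

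The promoters of the 2 members found in the RefSeq promoter table are shown because Polycomb targets in mammals are often rich in CpG. Prdm1, the richer in CpG of these, had almost no called islands in its window, while Lin28b had recurring ones. That window holds only part of the Prdm1 gene and may not hold its promoter. Above it, toward the start of the gene, each adult list had an island over chr10:44246601-44249000, at folds of 1.94 to 3.32. E12.5 replicate 2 had an island nearby, at a fold of 3.19. A link between CpG content and islands was not tested. Each sequence holds the 250 bases before the annotated start on GRCm38.p6, chromosome 10, minus strand, 5′ to 3′, with the CG dinucleotide, which reads the same on both strands, in capitals.
Prdm1: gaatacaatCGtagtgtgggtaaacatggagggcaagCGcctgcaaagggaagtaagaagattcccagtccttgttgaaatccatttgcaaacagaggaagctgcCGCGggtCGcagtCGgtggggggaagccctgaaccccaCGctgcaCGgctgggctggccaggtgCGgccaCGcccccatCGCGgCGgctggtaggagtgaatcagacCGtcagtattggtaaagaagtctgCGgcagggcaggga
Lin28b: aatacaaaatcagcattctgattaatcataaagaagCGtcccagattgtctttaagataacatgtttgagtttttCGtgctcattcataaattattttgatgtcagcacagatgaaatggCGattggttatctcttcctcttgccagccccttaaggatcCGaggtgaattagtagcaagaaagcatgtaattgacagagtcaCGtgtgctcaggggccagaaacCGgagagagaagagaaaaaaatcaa
The Prdm1 sequence holds 15 CG at a GC content of 59.2%, and 27.3% of the 32851 promoters of the table hold as many or more. The Lin28b sequence holds 6 CG, the median number over all promoters, at a GC content of 39.2%, and 50.4% hold as many or more. At least 1 CG stands in 92.1% of them. These positions belong to GRCm38.p6 and were not placed on the mm9 islands. The Prdm1 promoter may lie outside the Prdm1 window.

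The 8 lists hold 6171 to 17407 islands with 1171968 to 6627853 ChIP reads inside them. They cover 60.8 to 109 Mb, apart from the list of ISC replicate 1, which covers 241 Mb. Reads outside islands are not listed, so a window without an island was not called, which leaves room for a lower level of the mark. Total depth per library is unknown. Only the relative size of replicates that share a control can be had, and replicate 1 was 1.09 times replicate 2 in ISC, 1.68 times in AE, 1.63 times at E14.5 and 0.928 times at E12.5. The list of E12.5 replicate 1 has the lowest median fold, 1.38, beside 1.66 in E12.5 replicate 2.

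The Igf2bp1 window held a broad H3K27me3 domain in all 4 adult libraries and small islands or none in the embryonic ones. Where the gene lies within this window on mm9 is not given by the lists. Islands covered 76.0% and 46.1% of the window in ISC and 48.8% and 48.5% in AE, against 3.73% and 7.47% at E14.5 and 19.5% and 0% at E12.5. Every adult library lay above every embryonic one, and the ISC values lay on both sides of the AE values. The adult mean was 54.9% ± 14.1 (SD, n = 4) and the embryonic mean 7.67% ± 8.44 (SD, n = 4), a difference of 47.2 percentage points. Permuting the 8 libraries in all 70 ways gave an exact two-sided p of 0.0286, the smallest this design allows. Windows and tests were chosen with earlier results of these data known, so this p and those below are descriptive only.

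The same test was run on all 16167 windows of 75 kb that touch an island of any list. Adult libraries lay above all embryonic ones in 4.42% of these windows and embryonic above all adult ones in 1.55%. With every list cut to the same covered length these shares were 3.41% and 3.36%. The median difference over all windows was 1.27 points, and 99.6% of them had a difference below that of Igf2bp1. After Benjamini-Hochberg adjustment over these windows, the permutation p for Igf2bp1 was 0.479, and no window fell below 0.05. Single libraries were permuted, so the raw p holds for libraries. Over the means of the 4 populations the smallest possible exact p is 0.333, which is what was found.

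**Figure D1:**
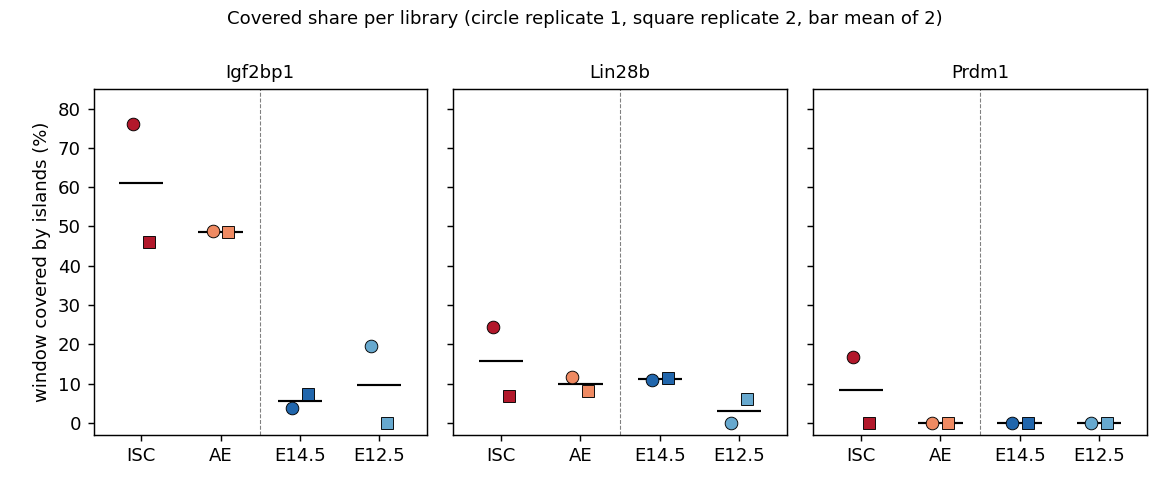
Percent of each window covered by H3K27me3 islands (y axis) in each library, by population (x axis, adult left of the dashed line), with a bar at the mean of the 2 replicates. At Igf2bp1 the adult libraries lie between 46.1% and 76.0% and the embryonic ones between 0% and 19.5%, while at Lin28b the 2 kinds overlap and at Prdm1 a single library has any coverage.

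The adult domain had a similar upper border in all 4 libraries and a varying lower border. In ISC replicate 1 the main island spanned chr11:95834401-95883800 (49.4 kb), with 2.78 ChIP reads per control read. In ISC replicate 2 it spanned chr11:95845401-95882200 (36.8 kb), with a ratio of 1.54. In AE replicate 1 it spanned chr11:95843401-95884000 (40.6 kb), with a ratio of 2.80. In AE replicate 2 the domain was called as 2 islands, chr11:95842601-95871000 and chr11:95872401-95882400, with ratios of 1.77 and 1.64. The lower borders thus lie within 11 kb of each other, and the domain passes the upper border of the window in each adult library. These ratios carry the size of each library, so between lists they are not compared.

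Scaled for library size by the authors, the fold of the longest island over the Igf2bp1 window was 3.55 and 2.14 in ISC and 1.92 and 2.04 in AE. Within their own lists these islands had a higher fold than 99.5% and 97.1% of islands in ISC and 87.5% and 89.8% in AE. They were also longer than at least 97.5% of the islands of their list. Control reads over them numbered 18.2 to 20.1 per kb, within the range of the list medians of 16.3 to 21.5 per kb.

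The embryonic islands at Igf2bp1 were short. E14.5 replicate 1 had 1 island of 2.8 kb (fold 2.09) and E14.5 replicate 2 had 1 of 5.6 kb (fold 2.00). Within their own lists these islands had a higher fold than 80.4% and 68.6% of islands. They share 2.2 kb (chr11:95872401-95874600), near the upper end of the adult domain. E12.5 replicate 1 had 3 islands of 5.2 to 6 kb. The first of them (chr11:95812601-95818600, fold 1.94, false discovery rate (FDR) 5.98e-09) lies outside all adult islands. It had a higher fold than 96.3% of the islands of its list. The other 2 had folds of 1.38 and 1.34, higher than 49.3% and 38.4% of islands. Their FDR values were 0.00315 and 0.00453, near the 0.01 limit of the lists. E12.5 replicate 2 had no island in the window.

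What all 4 adult lists covered and every embryonic list left uncovered fell in 2 stretches, chr11:95845401-95853800 (8.4 kb) and chr11:95859001-95871000 (12 kb). They are parted by an island of E12.5 replicate 1. The longer one ranks 26th in length among the 1288 such stretches of the genome. Without that library the difference in covered share was 51.1 points, and without ISC replicate 1 it was 40.2 points. Each gave an exact permutation p of 0.0286, the smallest possible with 1 library left out. Groups that do not overlap stay apart whichever library is dropped, so this p adds no support.

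**Figure D2:**
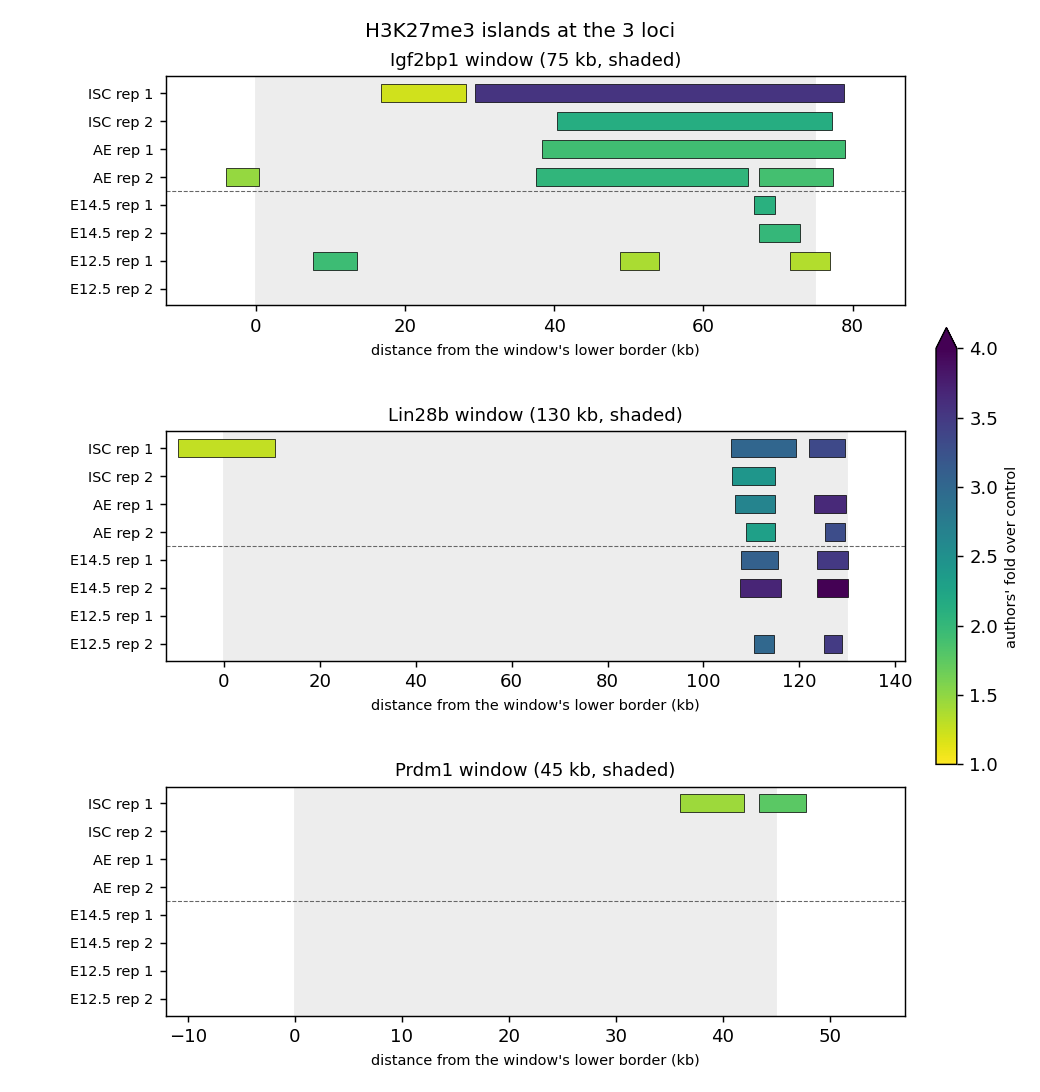
Islands of each list (bars) by distance in kb from the lower border of the window (x axis), coloured by the authors' fold over control, with adult libraries above the dashed line and embryonic ones below. The longest adult islands, of 28.4 to 49.4 kb, fill the upper part of the Igf2bp1 window, 2 narrow islands recur near the upper end of the Lin28b window in adult and embryonic lists, and Prdm1 has islands in ISC replicate 1 alone.

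Taken by steps of the design, the Igf2bp1 values of ISC (76.0% and 46.1%) lie above both E14.5 values (3.73% and 7.47%). Those of AE (48.8% and 48.5%) lie between the ISC values, and those of E14.5 between the E12.5 values (19.5% and 0%). With 2 libraries against 2, no p below 0.333 can be had for a step, and none was tested.

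The Lin28b window held 2 narrow islands of high fold that recurred in adult and embryonic lists. ISC replicate 2 lacked the upper one and E12.5 replicate 1 lacked both. Islands covered 24.5% and 6.92% of the window in ISC and 11.7% and 8% in AE, against 10.9% and 11.5% at E14.5 and 0% and 6.15% at E12.5. The 2 kinds of libraries overlap. The adult mean was 12.8% ± 8.06 (SD, n = 4) and the embryonic mean 7.15% ± 5.34 (SD, n = 4), a difference of 5.62 points (exact two-sided permutation p = 0.314, and 0.926 after Benjamini-Hochberg adjustment over 11157 windows of 130 kb). Over those windows the median difference was 0.923 points, with adult libraries above all embryonic ones in 5.11% and embryonic above all adult ones in 1.96% (3.74% and 4.15% at equal covered length). The highest value comes from ISC replicate 1, the longest list, and the difference was 1.72 points without it. Without E12.5 replicate 1 it was 3.23 points, and with both left out the sign turned, at -0.667 points.

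The lower Lin28b island was called in 7 of 8 lists, all but E12.5 replicate 1. Its length was 13.6 and 9 kb in ISC and 8.4 and 6.2 kb in AE, against 7.8 and 8.6 kb at E14.5 and 4.2 kb in E12.5 replicate 2. These lists share chr10:45190601-45194800 (4.2 kb), and 6.2 kb (chr10:45188801-45195000) is covered in all 4 adult libraries. Unscaled, and so not compared between lists, ChIP reads per control read numbered 2.37 and 1.74 in ISC, 3.86 and 2 in AE, 2.87 and 2.11 at E14.5, and 1.88 in E12.5 replicate 2. The authors' fold was 3.02 and 2.42 in ISC and 2.64 and 2.31 in AE, against 3.08 and 3.69 at E14.5 and 3.00 in E12.5 replicate 2.

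The upper Lin28b island was called in 6 lists, all but ISC replicate 2 and E12.5 replicate 1. It was 7.6 kb long in ISC replicate 1 and 6.8 and 4.2 kb in AE, against 6.6 kb in both E14.5 libraries and 3.8 kb in E12.5 replicate 2. The E14.5 islands have identical borders, chr10:45203601-45210200. Its unscaled ratio, likewise given for each list alone, was 2.62 in ISC replicate 1, 5.33 and 2.86 in AE, 3.27 and 3.03 at E14.5, and 2.18 in E12.5 replicate 2. The authors' fold was 3.34 in ISC replicate 1 and 3.66 and 3.30 in AE, against 3.51 and 5.30 at E14.5 and 3.48 in E12.5 replicate 2.

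Together these 13 Lin28b islands rank high by fold in every list that has them. The lower ones had a higher fold than 93.6% to 99.3% of the islands of their list, and the upper ones than 96.7% to 99.7%. They were of ordinary length, longer than 25.1% to 67.3% of islands. In all 6 lists with both, the upper island had the higher fold. ChIP reads per kb were higher in the upper island in 2 of these 6 lists, whereas control reads per kb were lower in it in 6 of 6 (6.18 to 11.6 per kb, against 10.1 to 16.2 per kb in the lower islands). All these control values lie below the list medians of 16.3 to 21.5 control reads per kb. The part of the control in the high folds and in this order was not tested. Another island, chr10:45070401-45090600, reaches into the lower end of the window in ISC replicate 1 alone, at a fold of 1.28.

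**Figure D3:**
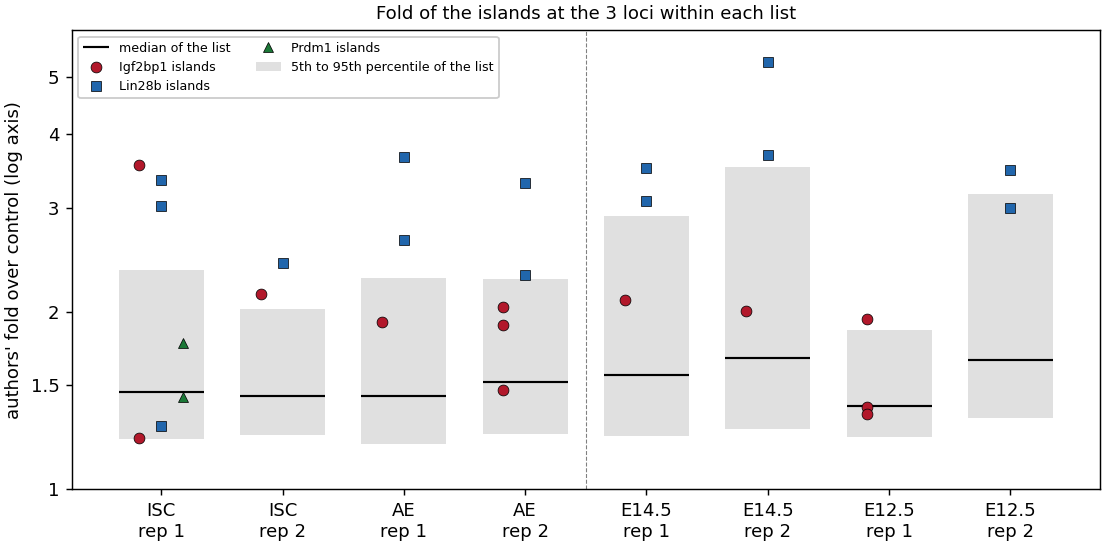
The authors' fold over control (y axis, log scale) of each island at the 3 loci, beside the median (line) and the 5th to 95th percentile range (grey) of all islands of the same list, for each library (x axis). The recurring Lin28b islands lie at folds of 2.31 to 5.30, above the grey range or at its top, and the 4 long adult Igf2bp1 islands lie at 1.92 to 3.55.

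The Prdm1 window was almost free of called H3K27me3. Islands covered 16.9% and 0% of it in ISC and 0% in both AE libraries, against 0% in all E14.5 and E12.5 libraries. The single positive library, ISC replicate 1, had 2 islands, chr10:44181001-44187000 and chr10:44188401-44192800, with 1.13 and 1.39 ChIP reads per control read and folds of 1.44 and 1.77. The adult mean was 4.22% ± 8.44 (SD, n = 4) and the embryonic mean 0% (n = 4), and the exact two-sided permutation p was 1 (also 1 after adjustment over 22391 windows of 45 kb). With coverage in a single library every split gives the same absolute difference, so this test could give no other result. In such windows adult libraries lay above all embryonic ones in 3.70% and embryonic above all adult ones in 1.38% (2.96% and 2.95% at equal covered length), with a median difference of 2 points. Without ISC replicate 1 no library had an island here.

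Because the RefSeq gene is longer than the window, the 100 kb above it, toward the start of the gene, were also read. This stretch was chosen after its values were seen, so no test was run. Islands covered 26.4 and 16.2 kb of the window and these 100 kb together in ISC and 13.8 and 2.4 kb in AE, against 0 kb in both E14.5 libraries and 0 and 2 kb at E12.5. All adult libraries lie above the embryonic ones, as they do in 5.32% of the 10339 windows of the same length (embryonic above all adult in 1.85%). The lowest adult library, AE replicate 2, lies close to E12.5 replicate 2.

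A stretch of 2.4 kb, chr10:44246601-44249000, was called in each adult list and in none of the embryonic ones. It lies 56.6 kb above the window. Over it, ISC islands had folds of 2.88 and 1.94 and AE islands of 2.43 and 3.32, higher than 98.1%, 93.1%, 96.6% and 99.7% of the islands of their lists. E12.5 replicate 2 had an island of 2 kb nearby (chr10:44253001-44255000, fold 3.19). It overlaps the end of the island of ISC replicate 1 and not the shared stretch. Of the 1288 adult-only stretches of this kind, 680 are longer. A second position, chr10:44195201-44198200, was covered in both ISC libraries and AE replicate 1, at folds of 2.07, 1.44 and 1.34. Whether these islands lie in Prdm1 on mm9 is not given by the lists.

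**Figure D4:**
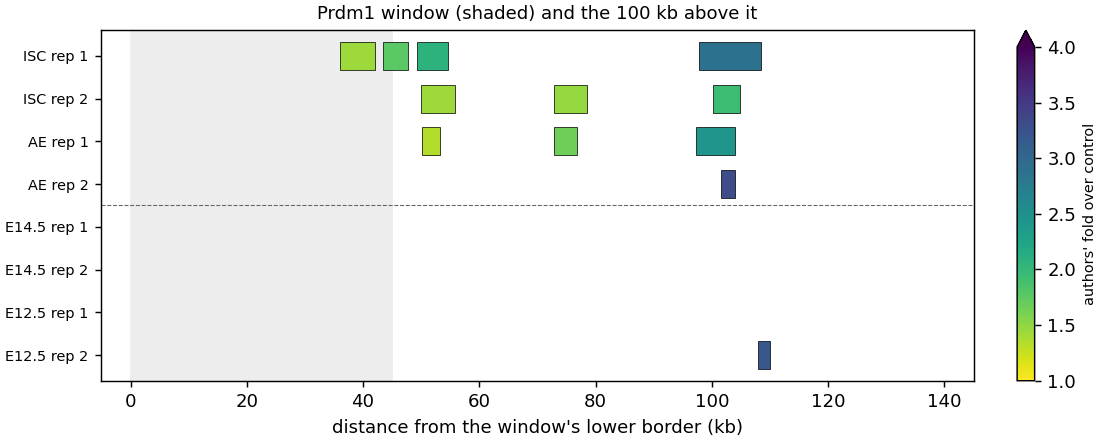
Islands of each list (bars, coloured by the authors' fold over control) by distance in kb from the lower border of the Prdm1 window, which is shaded, through the 100 kb above it. All 4 adult lists have an island over the shared stretch 56.6 kb above the window, the 2 E14.5 lists have none in view, and E12.5 replicate 2 has 1 of 2 kb.

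Among all windows of 75 kb, the difference at Igf2bp1 lies far toward the adult side, as the plot of differences over the genome shows. Side by side, the longest island of each adult list at Igf2bp1 was 28.4 to 49.4 kb, the 2 recurring Lin28b islands were 3.8 to 13.6 kb in adult and embryonic lists, and the Prdm1 window had islands of 4.4 and 6 kb from 1 list. Differences between loci were not tested.

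**Figure D5:**
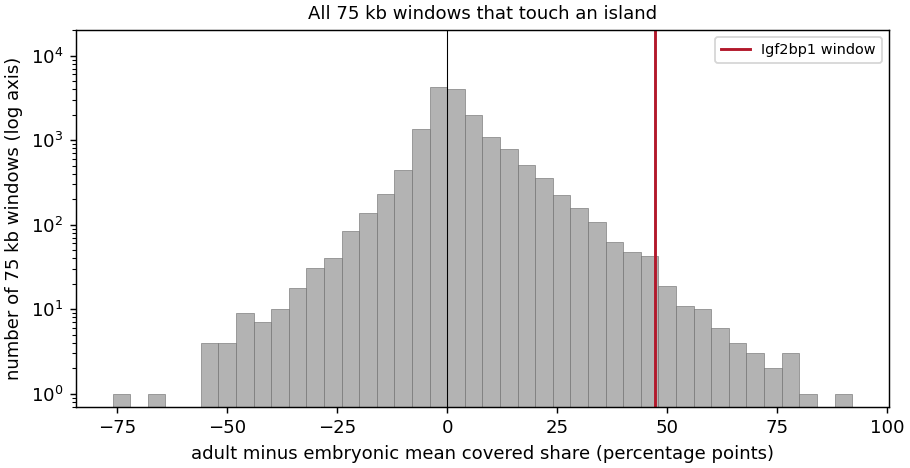
Number of 75 kb windows (y axis, log scale) by adult minus embryonic mean covered share in percentage points (x axis), for all windows that touch an island. The red line marks the Igf2bp1 window at 47.2 points, above 99.6% of the windows.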

How the data were processed

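H3K27me3 ChIP-seq was deposited as 1 list of islands per ChIP library, with no header. The submitters' processing notes name SICER 1.1, which merges enriched windows into islands, beside Bowtie 1.1.2, bcl2fastq 1.8.4, SAMtools 1.2 and the mm9 build; settings are not given in the sources used here. Columns 4 and 5 were read as the deposited, unnormalized read counts of ChIP and control in each island. Column 7 is the authors' fold, the ratio of ChIP to control reads scaled by library size, since columns 4 and 5 and the fold gave 1 constant per list. Columns 6 and 8 hold the authors' p-value and FDR. Replicates of a population were called separately against 1 control.

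Islands were painted on the 200 bp grid of the lists with Python 3.11.15 and numpy 2.4.6. The covered share of a window was compared between adult and embryonic libraries by an exact two-sided permutation test, adjusted over all windows of the same length that touch an island. The scripts were tested on simulated data. Coordinates are 1-based on mm9. A count test was not possible, since reads are listed inside islands only. Alternatives were an FDR of 1e-10 or less, a fold of 1.5 or more, equal covered length, windows widened by 20 kb or narrowed by 10 kb, each library left out, and a replicate block. The rule for named genes was the 3 members, whatever their values. Members, windows and tests were chosen with earlier results of these data known. Other genes of the fetal programme were to be placed only with an mm9 annotation and were not analysed here. The design does not state that duplicates came from separate animals, so p-values measure the spread between these libraries. Islands rest on PCR-amplified reads without molecular identifiers.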

Additional observations from a re-analysis of the deposited data

Results flagged for a closer look

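Of 8 groups of 4 libraries examined for a single value far from the rest, 3 had one, all of them from ISC replicate 1. The groups were the covered shares at each locus, and the folds of the longest island in the adult libraries at Igf2bp1 and Lin28b. The rule used has a nominal rate of about 1 in 20 groups flagged by chance, which was not checked on these shares and folds. The 3 values come from 1 list. The 1 in 20 does not hold for the Prdm1 shares. There a single positive value beside values of 0 is always flagged, and equal values never are. At Igf2bp1 its covered share was 76.0%, while the other adult libraries lay at 46.1% to 48.8%. At Prdm1 its covered share was 16.9%, while the others were at 0%. The fold of its longest Igf2bp1 island was 3.55, while the other adult lists had 1.92 to 2.14. Its list covers 241 Mb, against 60.8 Mb for ISC replicate 2, and the part of that extent in these values was not tested. At equal covered length the adult mean at Igf2bp1 was 50.9% and at Prdm1 0%.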

How the results depend on the processing

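The Igf2bp1 difference of 47.2 points kept its direction and an exact permutation p of 0.0286 under the FDR, fold, equal-length and both window alternatives (33.9 to 53.1 points). With each library left out it was 40.2 to 51.1 points, at the same p. That p is the smallest possible with 1 library left out, and groups that do not overlap stay apart whichever library is dropped. The replicate block leaves it at 47.2 points with an exact permutation p of 0.0556, the smallest p of that block. With E12.5 replicate 1 and ISC replicate 1 both left out, chosen after seeing the data, it was 44.1 points (exact permutation p = 0.100, again the smallest possible), and over population means 47.2 points (exact permutation p = 0.333). Correlations of replicate 1 minus replicate 2 across windows ran from -0.259 to 0.170 between populations. They cannot tell whether libraries of the same replicate number were handled together. At Lin28b the difference ranged from 1.72 to 7.56 points with 1 library left out and was -0.667 with E12.5 replicate 1 and ISC replicate 1 both left out (exact permutation p = 1); why it turned was not tested. The Lin28b difference missed the 0.05 threshold under every alternative run. The replicate block, the setting with both libraries left out and the population means could not reach it whatever the data. At Prdm1 it ranged from 0 to 5.63 points with 1 library left out, was 7.24 points in windows widened by 20 kb (exact permutation p = 0.143), 0.889 points with the fold limit, and 0 points at equal covered length, in the FDR setting and in narrowed windows. The block gave a p of 0.389 at Lin28b and 1 at Prdm1 (exact permutation tests). At Prdm1 no other p was possible in the block, since a single library has coverage. The share of windows with adult libraries above all embryonic ones was, with the FDR limit, 2.21% (75 kb), 2.36% (130 kb) and 1.86% (45 kb), and with the fold limit 2.08%, 2.47% and 1.73%. With embryonic above all adult ones it was 0.541%, 0.531% and 0.492% with the FDR limit, and 3.36%, 4.15% and 2.95% at equal covered length. At equal covered length the adult-above shares were 3.41%, 3.74% and 2.96%, close to the embryonic-above shares at 75 and 45 kb and below them at 130 kb. The cause of these shifts was not tested. Depth per library is unknown, so a missing island is not a missing mark.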

Other observations

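Below the Lin28b window, 2 further positions were each called in 6 lists, and 5 lists held both. The first, chr10:45003001-45010800 in E14.5 replicate 1, had folds of 1.66 and 1.48 in ISC and 2.10 in AE replicate 2, against 1.86 and 2.58 at E14.5 and 2.48 in E12.5 replicate 2. The second, chr10:45052601-45060200 in E14.5 replicate 1, had folds of 1.93 in ISC replicate 1 and 1.74 and 2.20 in AE, against 2.46 and 3.11 at E14.5 and 3.74 in E12.5 replicate 2. As at the Lin28b islands, E12.5 replicate 1 had no call at either. The genes at these positions are not given by the lists.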
